A study of Mus musculus with 4 samples.

Results

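The genes described here are receptors and transcription factors of blood stem and progenitor cells: Kit, Flt3, Cd34, Ly6a, Erg, Sox4, Gata2, Fli1 and Etv6. Their probe sets were taken wherever the platform annotation gives one of these names as the single gene symbol. This gave 20 of 45037 non-control probe sets, belonging to 8 of the 9 genes. Sox4 had 8 of them, Kit, Erg, Gata2, Fli1 and Etv6 had 2 each, and Flt3 and Cd34 had 1 each. No probe set carried Ly6a as its single symbol under this rule, so Ly6a was not analysed here.

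RNA came from mouse leukemic cells that carried the fusion gene MLL-AF9 and were purified from the bone marrow of C57BL/6 recipients. There were 2 arrays of Ezh2 KO cells and 2 of wild-type (WT) cells, and cells of both groups had been transformed with the same fusion. The product of Ezh2 is the methyltransferase of the Polycomb complex PRC2, acts on lysine 27 of histone H3 and keeps many developmental genes silent. A further label of the Ezh2 KO samples says that their recipients had been repopulated with Ink4a-/-Arf-/- marrow cells, whereas the WT label names wild-type marrow. The 2 labels of the Ezh2 KO samples therefore disagree on the genotype, and the group name follows the genotype. Whether both samples of a group stem from different mice is not stated. The p-values therefore measure only the spread between these arrays, which may be technical.

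KIT and FLT3 are receptor tyrosine kinases for stem cell factor and FLT3 ligand, whose signals maintain early progenitors. CD34 is a sialomucin on the surface of progenitors, and Ly6a encodes Sca-1, a surface marker of mouse stem cells. GATA2, ERG and FLI1 are transcription factors that occupy many of the same regulatory elements in stem cells together with RUNX1, TAL1, LYL1 and LMO2. ETV6 is a repressor of the ETS family needed by adult stem cells, and SOX4 is a high-mobility-group factor of progenitors that can promote leukemia in mice.

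Levels are linear intensities, with the 2% trimmed mean of each array at 500, and are given as mean ± SD over 2 arrays. Changes are differences of log2(intensity + 16), Ezh2 KO minus WT, fitted with limma over 31526 probe sets whose mean exceeded 21.9. P-values were adjusted over all of them by the Benjamini-Hochberg method, and a change is called below 0.05. The Ezh2 probe set itself read 4989 and 4991 in Ezh2 KO cells, against 5216 and 5315 in WT cells (log2 change -0.08, limma adjusted p = 0.555). Where it lies with respect to the deletion is unknown here, so it checks nothing about that deletion. Of the 11 myeloid markers listed for the leukemic cells, 10 had a probe set and all 10 were tested. Their summed intensity was 143047 and 128692 in Ezh2 KO cells, against 133926 and 132749 in WT cells. Mpo, the myeloperoxidase gene of promyelocytes, was among them, at 36399 and 32236 in Ezh2 KO cells, against 32252 and 32222 in WT cells. Cd33, Itgam and Csf1r were called higher, and Cebpa and Ctsg lower, each gene by its tested probe set of highest mean. Of all 13928 genes taken this way 9.18% were called, 4.52% as higher and 4.66% as lower. Cebpa lost its call without WT replicate 2 (-0.49, limma adjusted p = 0.0634). Ctsg lost its call without a filter (-0.25, 0.154) and without WT replicate 1 (-0.26, 0.141), WT replicate 2 (-0.24, 0.134) or Ezh2 KO replicate 2 (-0.19, 0.111).

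Of the 20 probe sets 18 passed the intensity filter, and 1 of the 18 was called, that of Erg named 1440244_at, which was 1.28-fold higher in Ezh2 KO cells. Over all tested probe sets 7.31% were called, 3.91% as higher and 3.39% as lower, so a count of 1 in 18 is near the background. An unadjusted p under 0.05 was found for 8 of the 18 (44.4%), against 21.1% of all tested probe sets. Bright probe sets reached it more often, with a share of 37.7% among the 7116 of highest mean. These include 5 of the 18, of which 4 had such a p, so 21.1% is a low comparison for the brighter members. The log2 change was above 0 in 15 of the 18, against 55.1% of all tested probe sets. Its median was 0.21 over the 18, against 0.04 over all. The Ezh2 KO arrays lay entirely above the WT arrays in 9 of the 18 (27.9% of all probe sets) and entirely below in 1 (21.7% of all). The 3 with a log2 change below 0 were all of Sox4. These counts take each probe set separately, and 4 of the Sox4 probe sets come from a single source sequence. Sox4 1455867_at, counted above 0, passed the filter on its mean although both WT values lay below the filter intensity. Both Gata2 probe sets, 1.76-fold and 2.03-fold higher, missed the threshold, and the probe sets of Sox4 disagreed with each other.

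**Figure D1:**
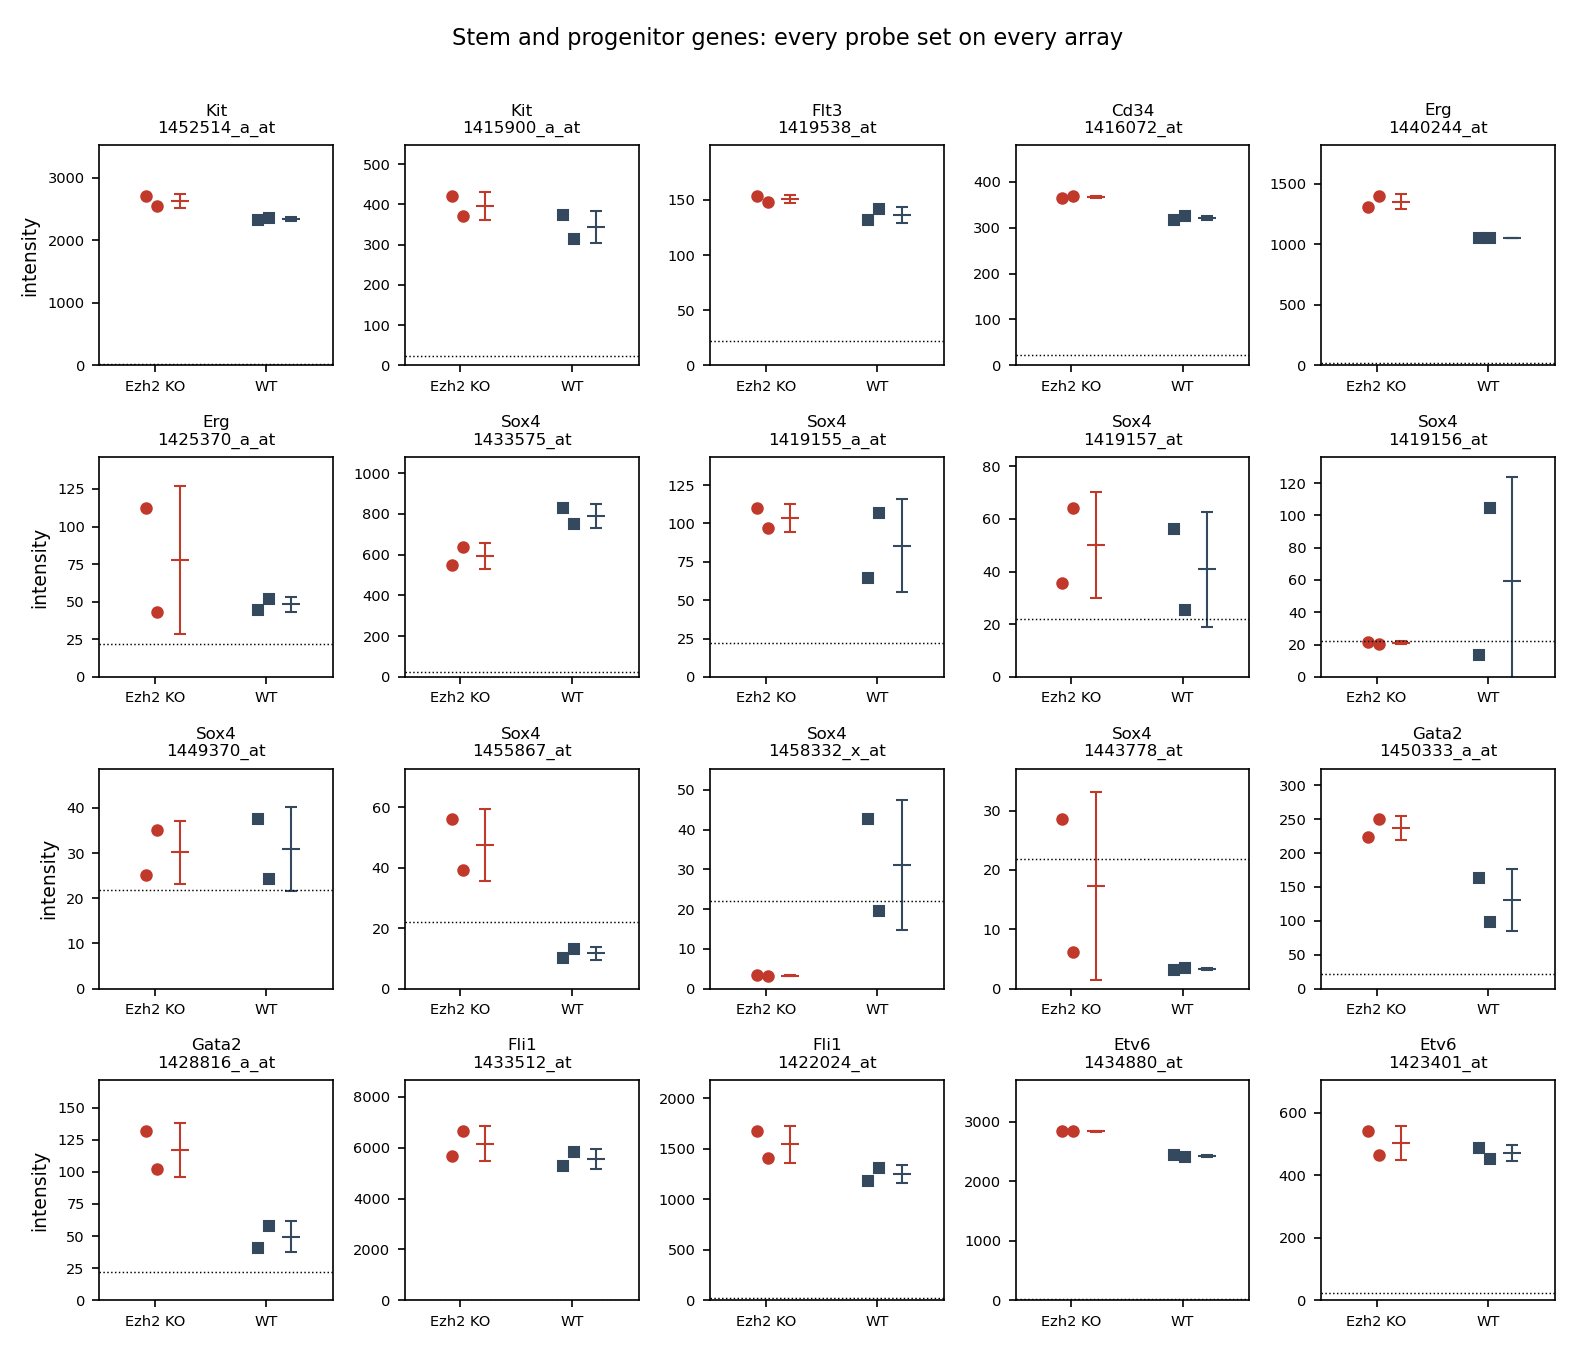
Intensity (linear axis from 0) of each of the 20 probe sets on each array, with Ezh2 KO as red circles and WT as dark squares. The bar beside each pair is the mean ± SD (n = 2), cut at 0 where it would pass below it, and the dotted line is the filter intensity of 21.9. Both Gata2 probe sets and Erg 1440244_at separate upward in Ezh2 KO cells, Sox4 1433575_at separates downward, and the other Sox4 probe sets lie near the filter line or scatter.

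The receptors of stem cell factor and FLT3 ligand were close in the 2 groups. The Kit probe set 1452514_a_at read 2706 and 2555 in Ezh2 KO cells, against 2321 and 2362 in WT cells. Both Ezh2 KO values lay above both WT values, with means of 2630 ± 107 and 2341 ± 29.2. Its log2 change was 0.17 (SE 0.07, limma adjusted p = 0.225), with a 95% interval of 0.0041 to 0.33. The other Kit probe set, 1415900_a_at, read 420 and 371 in Ezh2 KO cells, against 372 and 315 in WT cells. Here the lower Ezh2 KO array and the higher WT array overlapped, and the log2 change was 0.20 (95% interval -0.12 to 0.51). Neither Kit probe set was called (limma adjusted p = 0.485 for the second). With median centring the first had 0.093 and the second 0.12. The second had 0.11 without Ezh2 KO replicate 1, 0.31 without WT replicate 1 and 0.082 without WT replicate 2.

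Flt3 read 153 and 148 in Ezh2 KO cells, against 132 and 142 in WT cells. The arrays did not overlap, but the log2 change of 0.13 (SE 0.19) had a 95% interval of -0.31 to 0.56. At this intensity the interval covers changes in either direction, and limma did not call it (adjusted p = 0.780). It was 0.055 with median centring and 0.081 without WT replicate 1. The sialomucin Cd34 read 365 and 369 in Ezh2 KO cells, against 318 and 325 in WT cells. Replicates agreed closely and the groups did not overlap, yet the log2 change of 0.18 (SE 0.13, 95% interval -0.10 to 0.47) was not called (limma adjusted p = 0.475), and it was 0.11 with median centring. In a bulk sample, fewer cells of a type and less RNA per cell cannot be told apart, here and for every gene below.

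Gata2, a zinc-finger factor of stem cells that is also needed by mast cells and megakaryocyte precursors, had the largest change of the set in which its probe sets agreed. The probe set 1450333_a_at read 224 and 250 in Ezh2 KO cells, against 163 and 98.9 in WT cells. The second, 1428816_a_at, read 132 and 102 in Ezh2 KO cells, against 41.0 and 57.9 in WT cells. On both, every Ezh2 KO array lay above every WT array. The log2 changes were 0.82 (SE 0.23, 95% interval 0.29 to 1.34) and 1.02 (SE 0.29, 95% interval 0.38 to 1.67). Of all tested probe sets, 96.1% and 98.0% had a lower log2 change, decreases included. Neither was called over all probe sets, at limma adjusted p = 0.0689 and 0.0670, and the second passed with the filter at the 50th percentile. Averaging the log2 values of a gene's probe sets and testing 13928 genes gave 0.92 for Gata2, which passed (limma adjusted p = 0.0306). Without WT replicate 1 the first probe set also passed, at 1.14 (limma adjusted p = 0.0257), and without WT replicate 2 it had 0.50 (limma adjusted p = 0.227).

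The stretches just before the starts of the 3 genes with the largest changes are shown because they differ in their content of CG dinucleotides, and PRC2 in mammals is typically found at CG-rich promoters of silent developmental genes. Each holds the 250 bases before a RefSeq start in GRCm38.p6, written 5′ to 3′ on the gene's strand, with each CG in capitals. They are Gata2 at chr6:88193641-88193890 and at chr6:88198414-88198663 (plus strand), Erg at chr16:95586594-95586843 and Sox4 at chr13:28953700-28953949 (both minus strand).
Gata2, first start: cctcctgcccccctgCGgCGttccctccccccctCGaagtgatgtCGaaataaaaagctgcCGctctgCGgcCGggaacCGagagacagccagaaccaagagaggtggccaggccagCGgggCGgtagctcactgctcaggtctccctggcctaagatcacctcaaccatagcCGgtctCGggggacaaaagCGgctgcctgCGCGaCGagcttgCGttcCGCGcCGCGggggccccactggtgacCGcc
Gata2, second start: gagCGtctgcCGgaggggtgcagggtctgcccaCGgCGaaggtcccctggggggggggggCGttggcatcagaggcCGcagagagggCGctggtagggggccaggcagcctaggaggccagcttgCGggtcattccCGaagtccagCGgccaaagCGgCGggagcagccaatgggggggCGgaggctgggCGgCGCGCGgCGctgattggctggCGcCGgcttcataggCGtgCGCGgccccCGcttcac
Erg, first start: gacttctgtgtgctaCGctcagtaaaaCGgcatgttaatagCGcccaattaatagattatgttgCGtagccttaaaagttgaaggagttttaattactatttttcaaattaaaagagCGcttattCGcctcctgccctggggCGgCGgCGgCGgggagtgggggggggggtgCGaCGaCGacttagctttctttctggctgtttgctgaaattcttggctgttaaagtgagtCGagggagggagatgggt
Sox4: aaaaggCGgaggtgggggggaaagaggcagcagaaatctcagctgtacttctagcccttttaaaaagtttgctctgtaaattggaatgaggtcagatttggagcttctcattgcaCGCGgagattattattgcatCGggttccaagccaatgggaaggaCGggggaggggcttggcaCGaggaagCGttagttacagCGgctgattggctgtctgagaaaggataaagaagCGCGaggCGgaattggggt

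The 2 Gata2 windows held 22 and 24 CG dinucleotides, more than 85.2% and 88.0% of the 32851 windows of this length in the table, whose median was 6. The Erg window held 14 and that of Sox4 held 11. Genes with smaller changes lay on both sides of these, with 17 and 18 for Kit, 16 for Etv6, 13 for Flt3 and 6 for Cd34. Erg has 2 further starts, whose windows held 2 and 3, and which start each probe set reads was not determined. The table held 11 windows for 7 of the genes, among them 2 of Kit that nearly coincide, and none was matched for Fli1. A GATA motif (AGATAA or its reverse complement TTATCT) was found in 1 of the 11, at a further start of Erg, and in 9.99% of all windows. An ETS motif (CGGAAG or CTTCCG) was found in 0 of the 11 and in 13.6% of all. These letters describe the windows, and histone marks or binding there were not measured.

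Because Gata2 and Kit are also expressed by mast cells, the markers of that type are given beside them. Of 9 genes listed as mast cell markers, not all of them specific to that type, 5 were tested. Of these 1 was called higher and 1 lower, where 9.18% of all genes were called. An unadjusted p under 0.05 was found for 3 of the 5 (Cpa3, higher, and Hdc and Mcpt8, lower). The mast cell carboxypeptidase Cpa3 read 1318 and 1241 in Ezh2 KO cells, against 50.6 and 64.8 in WT cells (log2 change 4.14, limma adjusted p = 1.35e-06). The histidine decarboxylase Hdc, which makes histamine in mast cells and basophils, read 921 and 853 in Ezh2 KO cells, against 2219 and 2376 in WT cells (log2 change -1.36, limma adjusted p = 3.00e-05). Fcer1a and Tpsb2, which encode the IgE receptor alpha chain and a mast cell tryptase, were below the filter intensity on all 4 arrays. The summed intensity of the 9 listed genes was 3210 and 2931 in Ezh2 KO cells, against 3260 and 3496 in WT cells. Most of the WT sum came from Hdc, and Mcpt8 added 798 and 843 there. The sum thus hides the opposite changes of Cpa3 and Hdc, and gives no measure of mast cell content. Megakaryocyte markers had 5 of 7 genes tested and none called in limma (2 with an unadjusted p under 0.05), with a sum of 651 and 538 in Ezh2 KO cells, against 413 and 418 in WT cells. Among them the platelet glycoprotein gene Gp1bb had 141 and 127 in Ezh2 KO cells, against 78.9 and 66.2 in WT cells (log2 change 0.76, limma adjusted p = 0.0928). Their part in the Gata2 values was not tested.

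Sums for 4 other cell types overlapped or lay close between the groups. Erythroid markers (3 of 8 tested) summed to 190 and 232 in Ezh2 KO cells, against 218 and 218 in WT cells, and endothelial markers (3 of 6) to 383 and 481, against 512 and 474. T cell markers (2 of 6) summed to 247 and 103 in Ezh2 KO cells, against 187 and 124 in WT cells, and B cell markers (3 of 6) to 840 and 965, against 839 and 825. None of the tested markers of these 4 types was called in limma, 1 had an unadjusted p under 0.05 (Pecam1, lower), and Cd4, Ebf1, Tie1 and Hba-a1 were below the filter intensity on every array.

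Erg, an ETS factor required to sustain blood stem cells, held the one called probe set. On 1440244_at it read 1306 and 1396 in Ezh2 KO cells, against 1052 and 1051 in WT cells. The WT arrays agreed to within 1 unit and the groups were well apart, at 1351 ± 63.2 and 1051 ± 0.283. The log2 change was 0.36 (SE 0.08, 95% interval 0.17 to 0.55, limma adjusted p = 0.0355). The second Erg probe set, 1425370_a_at, read 112 and 43.0 in Ezh2 KO cells, against 44.6 and 51.8 in WT cells. One Ezh2 KO array stood high and the other lay below both WT arrays, so this probe set gave 0.44 with a 95% interval of -0.46 to 1.34. The call of 1440244_at was near the threshold. It was lost with the log2 values of both Erg probe sets averaged (0.40, limma adjusted p = 0.255). It was also lost when any single array was left out (0.31 to 0.40, limma adjusted p = 0.0524 to 0.148), with each array centred on its median (0.28, 0.0905) and without a filter (0.36, 0.0567).

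**Figure D2:**
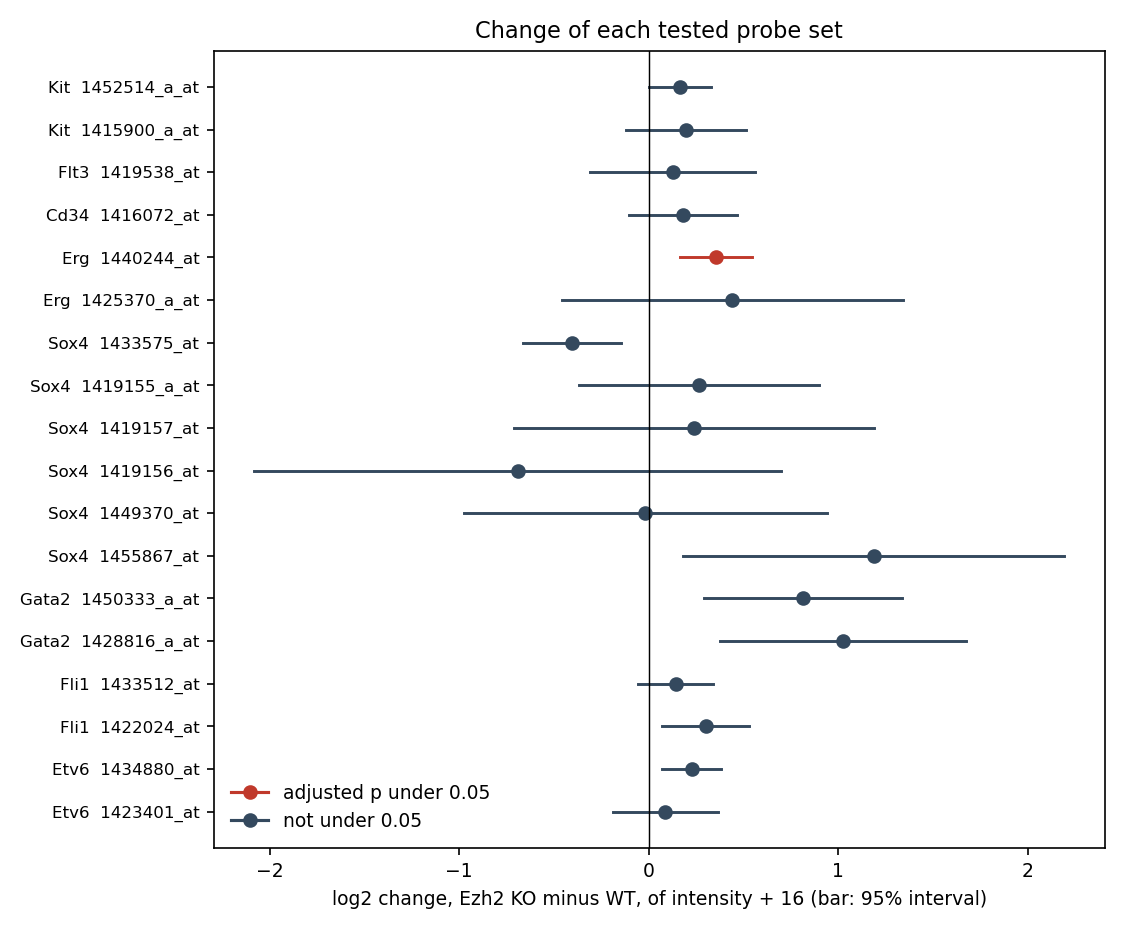
Points show the log2 change (Ezh2 KO minus WT, of intensity + 16) of the 18 tested probe sets and bars their 95% intervals, with the called one in red. Erg 1440244_at (0.36) is the one called, the Gata2 points lie at 0.82 and 1.02, and the Sox4 points range from -0.69 to 1.19.

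Fli1, the ETS factor closest to Erg, is active in stem cells, megakaryocytes and endothelium. Its probe set 1422024_at read 1676 and 1414 in Ezh2 KO cells, against 1184 and 1311 in WT cells. The groups did not overlap, and the log2 change was 0.30 (SE 0.10, 95% interval 0.07 to 0.53, limma adjusted p = 0.119). On 1433512_at Fli1 read 5668 and 6657 in Ezh2 KO cells, against 5289 and 5841 in WT cells. Here the groups overlapped and the log2 change was 0.14 (95% interval -0.05 to 0.34). It was 0.26 without Ezh2 KO replicate 1, 0.028 without Ezh2 KO replicate 2, 0.072 without WT replicate 1 and 0.070 with median centring. Without Ezh2 KO replicate 2 the first probe set passed, at 0.42 (limma adjusted p = 0.0268), and without Ezh2 KO replicate 1 it had 0.18 (0.499).

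Etv6 read 2845 and 2838 in Ezh2 KO cells on 1434880_at, against 2440 and 2409 in WT cells. The arrays of each group lay close together and well apart from the other group, with a log2 change of 0.23 (SE 0.07, 95% interval 0.07 to 0.38, limma adjusted p = 0.0839). With 1 probe set for each gene, and so fewer tests, the same change passed narrowly (limma adjusted p = 0.0493). It was smaller and did not pass with median centring (0.15, limma adjusted p = 0.248). Nor did Etv6 pass with its probe sets averaged (0.16, limma adjusted p = 0.276). With 1 array left out 1434880_at had 0.22 to 0.24. The second probe set, 1423401_at, read 541 and 463 in Ezh2 KO cells, against 488 and 452 in WT cells. It overlapped between groups and gave 0.09 (95% interval -0.19 to 0.37), and 0.015 with median centring.

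Sox4 was the one gene of the set whose probe sets disagreed in direction. The probe set of highest mean, 1433575_at, read 548 and 639 in Ezh2 KO cells, against 830 and 749 in WT cells. Both Ezh2 KO arrays lay below both WT arrays, at a log2 change of -0.40 (SE 0.11, 95% interval -0.66 to -0.15, limma adjusted p = 0.0673). Among tested probe sets 8.84% had a lower log2 change. It passed with 1 probe set for each gene (limma adjusted p = 0.0427), with median centring (-0.48, 0.0379) and without Ezh2 KO replicate 2 (-0.51, 0.0278), and had -0.30 (0.283) without Ezh2 KO replicate 1.

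On 1455867_at Sox4 ran the other way, at 55.9 and 39.1 in Ezh2 KO cells, against 10.2 and 13.1 in WT cells. Both WT values are below the filter intensity, and the log2 change of 1.19 (SE 0.45) was not called (limma adjusted p = 0.159). It depends on the number added before taking logs, at 1.93 with 1 and 0.56 with 64. The remaining 4 tested probe sets come from a single source sequence, so they share a target. They had means of 21.2 to 104 in Ezh2 KO cells and 30.9 to 85.6 in WT cells, and their log2 changes ran from -0.69 to 0.27, with overlapping groups in each. Of these, 1419156_at read 13.8 and 105 on the 2 WT arrays, a wider gap than between the groups. Its log2 change of -0.69 was -1.70 without WT replicate 1 (limma adjusted p = 0.0852). The 2 probe sets that failed the filter share another source sequence and pointed in opposite directions. One, 1458332_x_at, read 3.33 and 3.14 in Ezh2 KO cells, against 42.6 and 19.5 in WT cells. The other, 1443778_at, read 28.5 and 6.15 in Ezh2 KO cells, against 3.19 and 3.49 in WT cells. Averaged over its probe sets, Sox4 had a log2 change of 0.0050 (limma adjusted p = 0.995). This average gives all 8 probe sets equal weight, including the 2 that failed the filter and the other dim ones. It therefore does not show that Sox4 was unchanged.

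**Figure D3:**
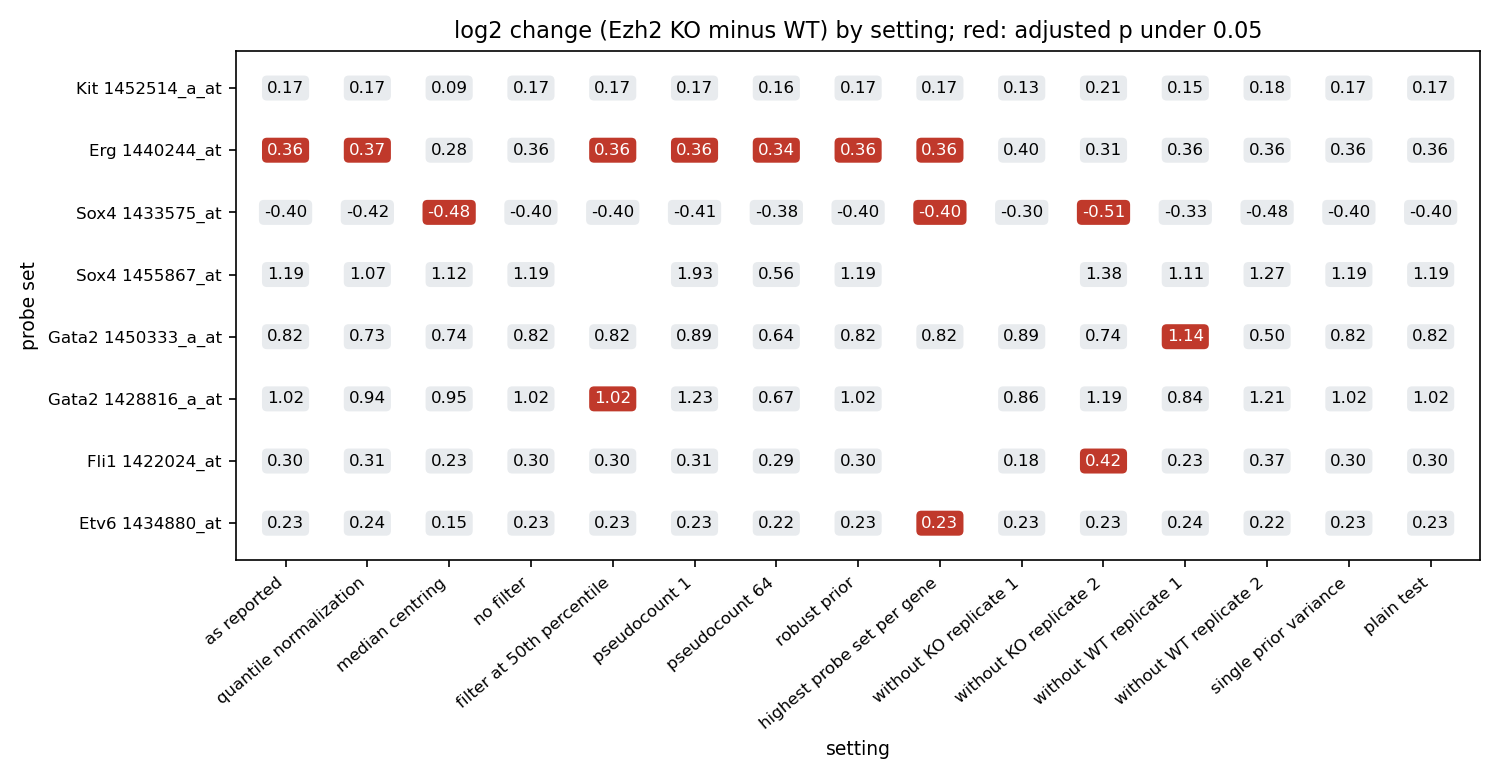
Each cell gives the log2 change (Ezh2 KO minus WT) under one processing setting (columns) of the 8 probe sets with an unadjusted p under 0.05, red where the limma or plain adjusted p is under 0.05, and empty where the setting does not test that probe set. Erg 1440244_at is red in 7 of the 15 columns, and each of the 8 keeps its direction in every column where it was tested. The 8 were chosen by a p-value from these same data, which favours a stable direction, so this is no test of it. Sox4 1455867_at was tested in 12 of the columns, and averaging of probe sets is not among them.

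Genes that act with this set were described by lists, each gene by its tested probe set of highest mean. Over all 13928 such genes 9.18% were called, 4.52% as higher and 4.66% as lower, against 1 of the 8 stem and progenitor genes. Among 7 factors that bind together in stem cells 6 were tested, and 2 were called higher and 0 lower (median 0.25). Besides Erg this was Runx1, the core-binding factor that starts definitive blood formation. It read 1456 and 1323 in Ezh2 KO cells, against 868 and 929 in WT cells (log2 change 0.62, SE 0.09, limma adjusted p = 0.00395). The groups were far apart, and the log2 change was 0.55 to 0.69 with 1 array left out. The call was lost with a single prior variance, in a plain test and with a 2-fold minimum. Lmo2 and Lyl1, which join TAL1 in a complex, had log2 changes of -0.11 and 0.03 (limma adjusted p = 0.504 and 0.850). These 2 were not among the genes fixed for naming. The called number in the list was 1 with median centring, without a filter, or without WT replicate 2 or either Ezh2 KO replicate, and 0 with a single prior variance, in a plain test or with a 2-fold minimum.

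In the ETS family, 20 of 26 listed genes were tested, and 4 were called higher and 0 lower (median 0.24). Ets1, best known in lymphocytes and endothelium, read 5059 and 4723 in Ezh2 KO cells, against 2158 and 2279 in WT cells. This was the clearest difference in the family, 2.20-fold (log2 change 1.13, SE 0.07, limma adjusted p = 3.16e-05), and 3 further probe sets of Ets1 were called in the same direction. The repressor Elk3 read 986 and 919 in Ezh2 KO cells, against 645 and 636 in WT cells (log2 change 0.56, limma adjusted p = 0.00791). Ets2, a target of RAS signalling, read 1412 and 1256 in Ezh2 KO cells, against 1071 and 994 in WT cells (log2 change 0.36, limma adjusted p = 0.0490). Spi1, which encodes the myeloid factor PU.1, lay at 1748 ± 40.2 in Ezh2 KO cells and 1789 ± 1.86 in WT cells and was not called. It was not among the genes fixed for naming and was chosen after its values were seen. The call of Ets2 was lost with a pseudocount of 1 (0.37, limma adjusted p = 0.0548), with median centring (0.29, 0.0948), without a filter (0.0870) and without WT replicate 1 (0.42, 0.0969), WT replicate 2 (0.31, 0.173) or Ezh2 KO replicate 1 (0.28, 0.234). The number called in the family was 2 with median centring, without a filter, or without WT replicate 1, WT replicate 2 or Ezh2 KO replicate 1, 1 with averaged probe sets or a 2-fold minimum, and 0 with a single prior variance or in a plain test.

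Of the receptor kinases related to KIT and FLT3, 5 of 5 were tested, and 1 was called higher and 0 lower (median 0.17). Csf1r, the receptor of macrophage colony-stimulating factor, read 3965 and 4583 in Ezh2 KO cells, against 3057 and 3028 in WT cells (log2 change 0.48, SE 0.08, limma adjusted p = 0.00720). Its 2 other probe sets had 0.10 and 0.39 and were not called. Of 18 ligands, partners and transducers of KIT and FLT3, 16 were tested, and 0 were called higher and 1 lower (median 0.11). The lower one was Pim1, a survival kinase induced by STAT5. It read 493 and 540 in Ezh2 KO cells, against 1121 and 1251 in WT cells, a 2.26-fold difference (log2 change -1.17, SE 0.10, limma adjusted p = 2.26e-04). A second Pim1 probe set gave -1.20 (limma adjusted p = 0.00683). Stat5a and Stat5b had log2 changes of -0.21 and 0.22 and were not called. Probe sets other than the one of highest mean were called for Pik3r1 (0.46 and 0.56) and Cblb (0.69). All 4 of these genes were named after their values were seen.

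**Figure D4:**
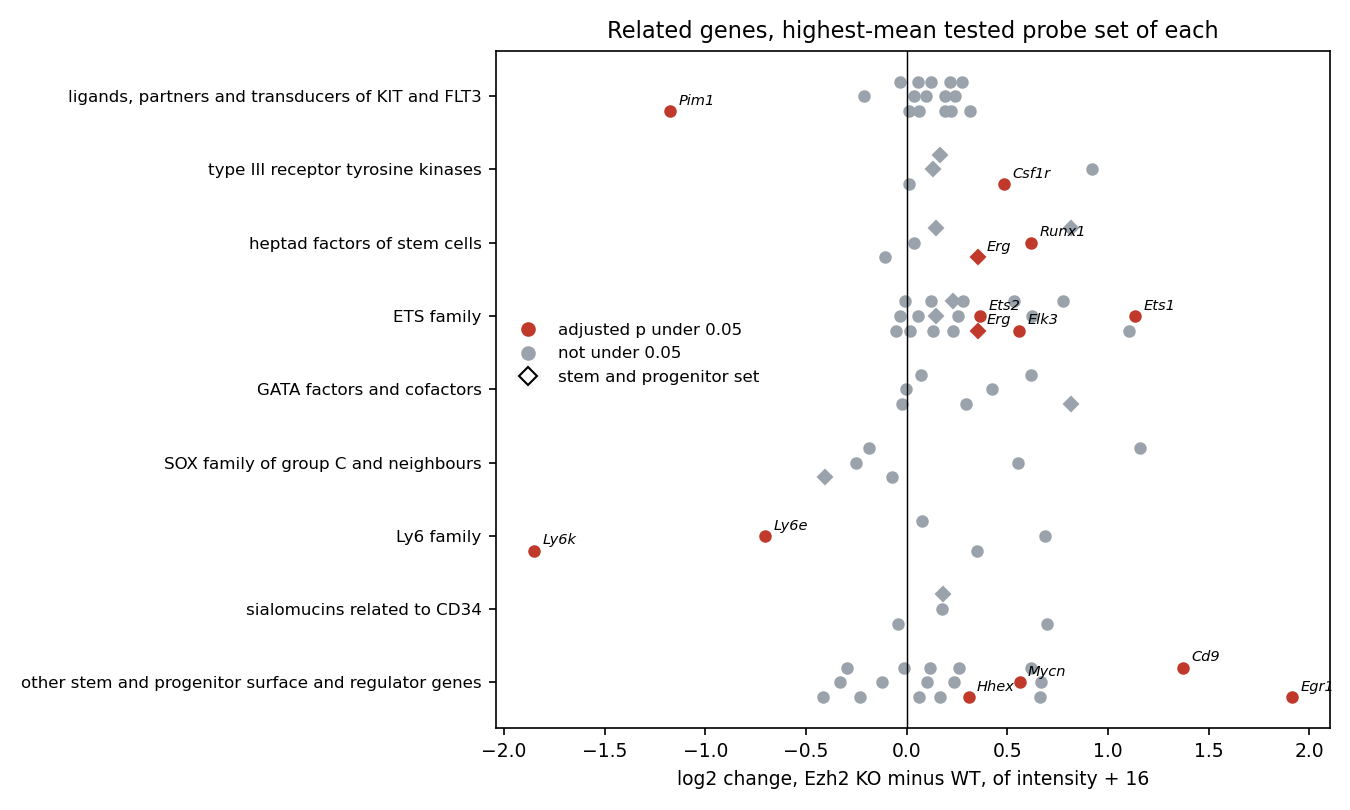
Each point is a gene of a list (rows) at the log2 change of its highest-mean tested probe set (horizontal axis), red where called, and diamonds mark genes of the stem and progenitor set. Ets1 (1.13) and Runx1 (0.62) lie to the right of Erg (0.36), and Pim1 (-1.17) stands alone to the left among the signalling partners.

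Other stem and progenitor genes had 19 of 24 tested, with 4 called higher and 0 lower (median 0.16). Egr1, an immediate early factor that also restrains stem cell cycling, was 3.76-fold higher and the tetraspanin Cd9 2.59-fold higher. Cd9 read 1470 and 1625 in Ezh2 KO cells, against 570 and 606 in WT cells (log2 change 1.37, limma adjusted p = 4.99e-05). Mycn, a MYC family factor of progenitors, had a log2 change of 0.56 (limma adjusted p = 0.00478) and the homeobox gene Hhex 0.31 (limma adjusted p = 0.0254). The Hhex call was lost with median centring (0.23, limma adjusted p = 0.0716), without a filter (0.0520) and without WT replicate 1 (0.33, 0.0870), WT replicate 2 (0.29, 0.0973) or Ezh2 KO replicate 1 (0.27, 0.0970).

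In the Ly6 family, 5 of 12 listed genes were tested, and 0 were called higher and 2 lower. Ly6e, a widely expressed member induced by interferon, read 3353 and 3149 in Ezh2 KO cells, against 4939 and 5671 in WT cells (log2 change -0.70, limma adjusted p = 0.00109). Ly6k, a member known from testis, read 28.7 and 54.0 in Ezh2 KO cells, against 206 and 167 in WT cells (log2 change -1.85, limma adjusted p = 0.00546). Ly6k lost its call without WT replicate 1 (-1.71, limma adjusted p = 0.0528). The probes of this family may share sequence between close relatives, so its levels are less certain.

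Sialomucins had 4 of 5 tested, GATA factors and cofactors 7 of 8, and the SOX list 6 of 6, with 0 called by limma in any of them. With an unadjusted p under 0.05 there were 0 sialomucins, 1 GATA list gene (Gata2) and 1 SOX gene (Sox4). Spn, which encodes CD43, had a log2 change of 0.18 (limma adjusted p = 0.287) and Cd164 had -0.04 (0.764). Gata4 had 0.07 (0.944) and Sox13 had -0.25 (0.697).

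The tested probe sets of other genes with the profiles most like Gata2, Sox4 and Erg over the 4 arrays were named by the smallest distance between centred log2 values. For Gata2 1450333_a_at they were Magea4, Spns2 and Ccdc30, at distances of 0.0552 to 0.103. For Sox4 1433575_at they were Ccdc185, Smpd2 and Rcc1, at 0.00888 to 0.0273, and for Erg 1440244_at they were Ccni, Kctd14 and Trpm7, at 0.0157 to 0.0168. Of these 9 only Ccni (log2 change 0.37), Trpm7 (0.37) and Rcc1 (-0.43) were called.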

How the data were processed

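RNA of 2 Ezh2 KO and 2 WT samples was hybridised to Affymetrix whole-genome mouse arrays, 1 sample each. The deposited intensity values were made with Expression Console of Affymetrix, per the submitters' processing notes, and the summary algorithm is not given in the sources used here. From the values, the authors had scaled each array to a 2% trimmed mean of 500 and had not quantile-normalized them. Such scaling hides a difference in total mRNA per cell. Depth has no counterpart here, and the number of arrays limits the precision.

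After 64 control probe sets were left out of 45101, those with a mean above the 30th percentile (intensity 21.9) were tested as log2(intensity + 16) in limma 3.58.1 (R 4.3.3; lmFit, then eBayes), the prior variance following mean intensity (9.30 degrees of freedom in all). Adding 16 understates changes of dim probe sets. Each probe set was tested, so adjusted p-values differ from those of a test per gene. The procedure was also run on 5 simulated data sets. Each had 200 changed probe sets, and independent normal values with variances drawn from the fitted prior. There it called 86.4% of probe sets given a change of 2. Recovery fell to 41.4% at a change of 1, and to 16.4% at 0.5. Unchanged probe sets made up 5.69% of the simulated calls. A probe set that was not called may therefore still have a change of these smaller sizes. Gene symbols came from the platform annotation, and promoter sequences are RefSeq's (GRCm38.p6). Gene start positions come from the same assembly. Python 3.11.15 with matplotlib 3.10.9 drew the plots.

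The members, lists, tests and alternatives were chosen with earlier results of these data known. The naming rule took every probe set of the members, up to 4 called genes per list with the largest change or the 2 of highest mean, and the 3 profiles nearest to each of 3 members. Some further genes, such as Lmo2, Lyl1 and single cell type markers, were named outside this rule. Alternatives were quantile normalization, median centring, other filters and pseudocounts, the replicate number as a block, a robust or single prior, values per gene, other thresholds, a plain test and leaving out each array.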

Additional observations from a re-analysis of the deposited data

How the results depend on the processing

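The number of called probe sets over the whole table was 2303, of which 1234 were higher and 1069 lower. It was 1392 without a filter, 963 with averaged probe sets, 489 with a 2-fold minimum, 3656 at an adjusted p of 0.10, 2 in a plain test per probe set and 0 with a single prior variance in limma (4978 with an unadjusted p under 0.05). Leaving out 1 array gave 1175 to 2161, the lowest without WT replicate 1. Median centring gave 837 higher and 1662 lower, and moved the median log2 change of all tested probe sets to -0.04, against 0.04 as reported. Of the stem and progenitor probe sets 1 was called. This became 0 without a filter, with a single prior variance, in the plain test (4481 of all probe sets had an unadjusted p under 0.05 there) or with a 2-fold minimum, 2 with the filter at the 50th percentile, 3 with 1 probe set for each gene, 5 at an adjusted p of 0.10, and 0 to 2 without 1 array. With median centring the 1 call was Sox4 1433575_at in place of Erg 1440244_at. Under quantile normalization and under median centring, 15 of the 18 had a log2 change above 0, with medians of 0.17 and 0.14, against 0.21 as reported. The number above 0 was 13 of 18 without Ezh2 KO replicate 1 and 14 of 18 without Ezh2 KO replicate 2. It was 15 of 18 without WT replicate 1 and 14 of 17 without WT replicate 2.

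With the replicate number as a block (replicate block), 3715 probe sets were called, and 5 of the set: Erg 1440244_at, both Gata2 probe sets, Etv6 1434880_at and Sox4 1433575_at. The numbers give only 2 pairs, and same-numbered arrays deviated with a correlation of 0.04. From 2 pairs this cannot tell whether same-numbered arrays shared more than a number, for example a preparation.

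Signs turned in probe sets that were not called. Leaving out 1 array gave -0.12 to 1.00 for Erg 1425370_a_at, -0.020 to 0.20 for Etv6 1423401_at, and for Sox4 -0.040 to 0.58 (1419155_a_at), -0.17 to 0.64 (1419157_at) and -0.22 to 0.19 (1449370_at), against 0.44, 0.09, 0.27, 0.24 and -0.02 as reported. Sox4 averaged over all its probe sets, those below the filter included, had 0.0050. Gata4 had -0.0012 with median centring, -0.031 with quantile normalization and -0.39 to 0.54 with 1 array left out, and Sox13 -0.71 to 0.21. The cause of these changes was not tested. Signal over background limits the dim probe sets of Sox4, Erg and Gata2, since detection calls were not used here.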
